A study of Mus musculus with 9 samples.

Results

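A set of 5 potassium channel genes is described here: Kcnd2 and Kcnd3, Kcnip2, Kcna5 and Kcnv2. They are the 5 genes, of 15824 in the count table, whose symbol is one of these names, and all 5 passed the filter on low counts. This rule uses no measured value, but the names were chosen with earlier results of these data known. The study sequenced RNA of cardiomyocytes of CD-1 mice in 9 libraries, 3 libraries at each of 3 ages, postnatal day 1 (P1), day 14 (P14) and day 56 (P56). CD-1 is an outbred stock, and the labels name no other allele, treatment or sex for any age. Each sample pooled several hearts (12 at P1, 6 to 7 at the later ages), so the spread between libraries is a spread between pools. The labels' protocols describe both isolated whole cells and sorted nuclei carrying Pcm1, and also mention surgery that no label assigns to an age. The labels do not settle which procedure gave each library, so a level below may be that of a cell or of its nucleus.

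Voltage-gated potassium (Kv) channels repolarise the cardiac action potential, and each has a ring of pore subunits. The fast transient outward current of the mouse ventricle runs through Kv4 pores, encoded by Kcnd2 and Kcnd3, with KChIP2, the product of Kcnip2, as an auxiliary subunit that raises their number at the membrane and shapes their gating. Kcna5 encodes Kv1.5, a pore of a rapidly activating, slowly inactivating current in mouse ventricle and of atrial repolarisation in several mammals. Kcnv2 encodes Kv8.2, a silent subunit: it forms no working channel alone and alters Kv2 channels when it joins them. In rodents the transient outward current is small around birth and grows as the heart matures.

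Promoter sequences in RefSeq (build GRCm38.p6) were found for 4 of the 5 genes, all but Kcnv2. Those of Kcnd2, Kcnd3 and Kcnip2 are shown because these 3 genes encode one channel complex and all rose between P1 and P14. Each sequence is the 250 bases just before the RefSeq transcription start, read 5′ to 3′ on the strand of the gene. Capitals mark matches to 2 motifs on either strand, CCACCC (or GGGTGG, its reverse complement), a box bound by Krüppel-like factors such as Klf15, and CANNTG, the E-box. The Kcnd2 window lies at chr6:21215096-21215345 on the plus strand, that of Kcnd3 at chr3:105451640-105451889 on the plus strand and that of Kcnip2 at chr19:45816064-45816313 on the minus strand.
Kcnd2: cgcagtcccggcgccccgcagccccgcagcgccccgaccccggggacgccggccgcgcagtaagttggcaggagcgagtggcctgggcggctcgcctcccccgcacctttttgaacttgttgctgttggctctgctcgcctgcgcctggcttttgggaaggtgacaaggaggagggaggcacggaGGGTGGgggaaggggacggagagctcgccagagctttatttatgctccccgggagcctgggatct
Kcnd3: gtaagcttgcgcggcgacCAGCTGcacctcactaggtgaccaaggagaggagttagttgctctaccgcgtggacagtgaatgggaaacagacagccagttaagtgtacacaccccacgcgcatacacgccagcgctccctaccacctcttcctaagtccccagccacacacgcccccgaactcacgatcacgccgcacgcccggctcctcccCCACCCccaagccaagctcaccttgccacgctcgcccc
Kcnip2: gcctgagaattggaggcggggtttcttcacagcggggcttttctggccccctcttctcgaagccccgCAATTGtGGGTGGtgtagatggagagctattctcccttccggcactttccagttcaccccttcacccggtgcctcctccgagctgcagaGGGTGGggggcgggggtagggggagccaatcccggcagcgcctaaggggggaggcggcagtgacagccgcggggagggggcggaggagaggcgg
The windows of Kcnd2, Kcnd3 and Kcnip2 held 68.8%, 62.8% and 66.8% G and C, against a median of 52.4% over all 32851 windows, and that of Kcna5 (chr6:126535556-126535805, minus strand) held 53.2%. CCACCC was found in all 4 windows (2 matches in Kcnip2) and in 28.1% of all windows. The E-box was found in Kcnd3, Kcnip2 and Kcna5 and in 66.2% of all windows. The nuclear receptor half-site AGGTCA, the GATA box AGATAA and the Iroquois palindrome ACANNTGT were found in none of the 4, and in 14.0%, 9.99% and 6.31% of all windows. A match describes letters only and shows no binding.

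Library totals were 49190887 to 58538025 counts (P1), 36619799 to 38878181 (P14) and 45866453 to 49535917 (P56), so 1 count was worth 0.0158 to 0.0276 CPM, the share of a library's counts scaled to a common total. All 11 listed cardiomyocyte markers were measured, and their summed CPM ranged over 51800 to 61900 (P1), 61100 to 93500 (P14) and 55900 to 79700 (P56). Markers of other cell types were also present. The 11 fibroblast markers summed to 157 to 317 CPM (P1), 218 to 804 (P14) and 50.5 to 99.3 (P56), and the 11 endothelial markers to 76.6 to 109, 241 to 611 and 40.3 to 102 CPM. At P14 replicate 1 held most of both and replicate 3 least. The 7 smooth muscle and pericyte markers summed to 163 to 190, 184 to 259 and 49.6 to 77.5 CPM, and the 5 measured of 7 epicardial markers to 37.5 to 39.8, 16.9 to 30.4 and 6.04 to 13.4 CPM. Of 12 neuronal markers 6 were measured, summing to 7.75 to 9.64, 4.5 to 4.63 and 2.55 to 3.19 CPM, and of 8 Schwann cell markers 4, summing to 11.3 to 13.2, 9.74 to 14.7 and 9.23 to 11.6 CPM. The mean log2 CPM over the 41 measured markers of fibroblast, endothelial, leukocyte, smooth muscle, pericyte and epicardial cells is called the marker score below. Its values were 1.59 to 2.19 (P1), 2.69 to 3.89 (P14) and 0.77 to 1.82 (P56), so it differs between ages as well as within them. In bulk RNA, fewer cells of a type and less RNA per cell cannot be told apart.

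Kcnd2, Kcnd3, Kcnip2 and Kcnv2 were higher at P14 than at P1, and Kcnd2, Kcnd3 and Kcnv2 rose again by P56. Kcna5 was highest at P14 and lowest at P56. In the quasi-likelihood test of edgeR, adjusted by Benjamini-Hochberg over 15817 genes, 5 of 5 genes were called higher at P14 than at P1, where 28.4% of all tested genes were called higher and 27.5% lower. From P14 to P56, 3 of 5 were called higher and 1 lower, against 27.5% and 28.5% of all genes. At P56 against P1, 4 of 5 were called higher and 0 lower, against 30.9% and 31.7%. All 5 differed among the ages, as did 78% of all genes. Once the marker score was a term of the fit, 4 of 5 were called higher at P14 than at P1 (24.4% of all genes were higher and 24.6% lower), and Kcna5 no longer differed among the ages (edgeR adjusted p = 0.336). With that score 2 were higher and 1 lower at P56 than at P14 (14.9% and 14.2% of all genes), and 4 higher and 0 lower at P56 than at P1 (31.3% and 31.3%). A stricter test, of a change beyond 1 on the log2 scale (glmTreat in edgeR), kept Kcnd2, Kcnd3 and Kcnv2 as higher at P14 than at P1 (7.62% of all genes were), Kcnv2 as higher at P56 than at P14 (2.98%), Kcna5 as lower at P56 than at P14, and Kcnd2, Kcnd3 and Kcnv2 as higher at P56 than at P1 (8.48%).

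**Figure D1:**
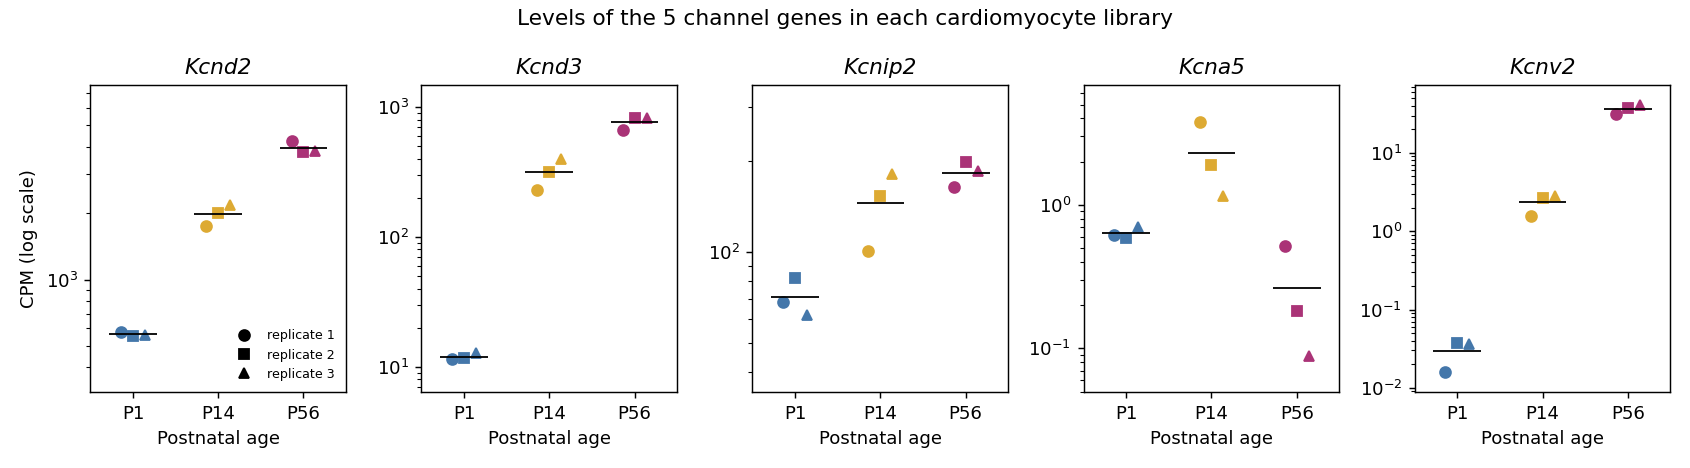
Level of each of the 5 genes in each library, in CPM on a log axis, by postnatal age. Points are single libraries (circle, square and triangle for replicates 1, 2 and 3) and the line is the mean of 3; Kcnd2, Kcnd3 and Kcnv2 step up at both intervals with no overlap, while Kcna5 peaks at P14.

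Kcnd2, the Kv4.2 pore gene (ENSMUSG00000060882), is a very long gene, at chromosome 6 from 21215503 to 21729805 on the plus strand of GRCm38 with a single annotated transcript. The annotation places 3 further genes in its introns on the same strand, which were not analysed here. Its level was 579, 555 and 560 CPM in the P1 libraries, 1750, 2010 and 2180 CPM at P14 and 4240, 3790 and 3830 CPM at P56. The ages did not overlap, and the highest P1 library lay far below the lowest P14 library. The mean rose from 564 ± 12.8 to 1980 ± 218 and then 3950 ± 249 CPM (SD, n = 3 libraries). The fitted rise was 1.81 ± 0.09 (log2, SE) from P1 to P14 with an edgeR adjusted p of 3.94e-07. It was 1.00 ± 0.09 from P14 to P56, with an adjusted p of 2e-05. The change from P1 to P56 was 2.81 ± 0.09. Kcnd2 varied least of the 5 genes between libraries of one age, with a coefficient of variation of 2.27% at P1, 11% at P14 and 6.29% at P56.

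Kcnd3, the Kv4.3 pore gene (ENSMUSG00000040896), lies at chromosome 3 from 105452330 to 105674002 on the plus strand. It gave 11.4, 11.8 and 12.7 CPM at P1, 231, 317 and 396 CPM at P14 and 663, 824 and 820 CPM at P56. Every library of an age stood above every library of the age before it. The rise of 4.72 ± 0.20 (log2, SE) from P1 to P14, a fitted fold of 26.3, had an edgeR adjusted p of 1.39e-07 and was the 48th largest rise of 15817 genes. From P14 to P56 it rose by a further 1.29 ± 0.17 with an adjusted p of 0.00018. With the marker score in the fit, the later rise was 0.43 and was no longer called (edgeR adjusted p = 0.152), while the earlier one was 5.28. At P14 the order of the 3 libraries in Kcnd3 (replicate 1 lowest, replicate 3 highest) was the reverse of their order in the marker score, 3.89, 3.39 and 2.69 for replicates 1, 2 and 3, and the part of these markers in the later rise was not otherwise tested. An antisense gene, Kcnd3os, shares exon positions with Kcnd3. The sources used here do not give the strand setting of the counting, so reads of the pair cannot be told apart, but Kcnd3os held 2205 counts over all libraries against 139092 for Kcnd3.

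Kcnd2 was the larger of the Kv4 genes at every age, in counts and per kilobase, and the distance between them shrank. The log2 ratio of Kcnd2 to Kcnd3 within a library was 5.55 ± 0.10 at P1, 2.68 ± 0.23 at P14 and 2.37 ± 0.27 at P56 (SD, n = 3), or ratios of CPM of 46.8, 6.41 and 5.16. The P1 libraries stood apart, whereas those of P14 (2.46 to 2.92) and P56 (2.20 to 2.68) overlapped. The F statistic, compared by exact permutation with its value in all 1680 assignments of the libraries to the ages, gave p = 0.0107, adjusted p = 0.0143 over the 4 ratios tested. The smallest p that this test could give was 0.00357. Kcnd3 made up 1.94% to 2.22% (P1), 11.7% to 15.4% (P14) and 13.5% to 17.9% (P56) of the counts of the Kv4 genes. Per kilobase of annotated exon these shares were 1.05% to 1.21%, 6.65% to 8.89% and 7.75% to 10.5%, and per kilobase of gene body 4.38% to 5.01%, 23.5% to 29.6% and 26.6% to 33.5%. Kcnd1, the remaining Kv4 gene, held at most 0.0936% of their counts in any library.

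Kcnip2, the KChIP2 gene (ENSMUSG00000025221, chromosome 19 from 45791839 to 45816061 on the minus strand), followed a flatter course than the Kv4 pores. Its level was 68.3, 81.8 and 61.8 CPM at P1, 100, 153 and 181 CPM at P14 and 163, 197 and 185 CPM at P56. The P1 libraries lay below all others, and the highest P14 library lay within the range of P56. Kcnip2 was called higher at P14 than at P1, by 1.04 ± 0.19 (log2, SE; edgeR adjusted p = 0.00128). The difference from P14 to P56 was 0.33 ± 0.19 and was not called (adjusted p = 0.165). Its sign turned once the marker score was a term of the fit (−0.655, edgeR adjusted p = 0.0486), and without P14 replicate 3 it was 0.52 (adjusted p = 0.0297). At P56 it was 1.36 ± 0.19 higher than at P1 (adjusted p = 0.000153).

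Set against the Kv4 pores, the KChIP2 transcript lost ground at each later age. The log2 ratio of Kcnip2 to the sum of Kcnd2 and Kcnd3 was −3.04 ± 0.22 at P1, −4.02 ± 0.25 at P14 and −4.70 ± 0.19 at P56 (SD, n = 3). In CPM, the Kv4 genes together held 8.2 times as many counts as Kcnip2 at P1, 16.2 times at P14 and 26.0 times at P56. No library of one age overlapped another age, and the exact permutation test gave p = 0.00357, adjusted p = 0.00714 over 4 ratios. These ratios are of counts and not of molecules, since the genes differ in length and reads from introns may have been counted.

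**Figure D2:**
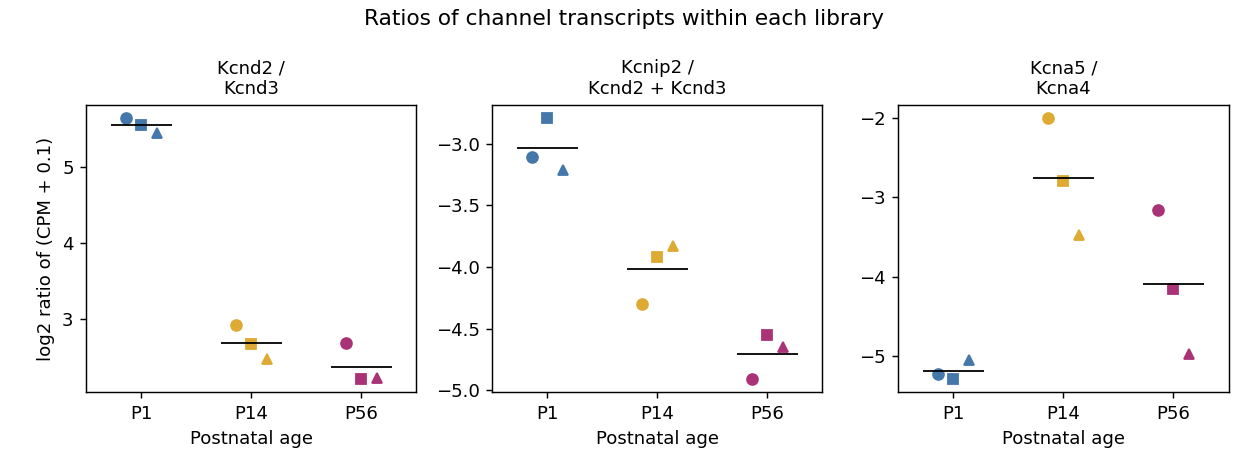
Log2 ratio of CPM (each with 0.1 added) between channel transcripts within each library, by age, with the mean of 3 libraries as a line and replicates 1, 2 and 3 as circle, square and triangle. Kcnd2 over Kcnd3 drops from 5.55 to 2.37, and Kcnip2 over the Kv4 sum from −3.04 to −4.70; Kcna5 over Kcna4 spreads most within P14 and P56.

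Kcna5, the Kv1.5 gene (ENSMUSG00000045534), is an intronless gene at chromosome 6 from 126532551 to 126535412 on the minus strand, and few counts fell on it. The libraries held 39, 31 and 39 counts at P1, 149, 70 and 42 at P14 and 23, 8 and 4 at P56. In CPM these were 0.617, 0.588 and 0.703 at P1, 3.81, 1.89 and 1.16 at P14 and 0.521, 0.184 and 0.0891 at P56. No library of one age overlapped another age, but within P14 and P56 replicate 1 was the highest and replicate 3 the lowest, with coefficients of variation of 59.8% and 85.8%. Kcna5 rose by 1.85 ± 0.50 (log2, SE) from P1 to P14 (edgeR adjusted p = 0.0106). It fell by 3.10 ± 0.57 from P14 to P56 (adjusted p = 0.00129). P56 against P1 gave −1.26 ± 0.60, which was not called (edgeR adjusted p = 0.0925). Without P56 replicate 1 that difference was −2.20 and was called (adjusted p = 0.0164).

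Within P14 and within P56, the summed fibroblast, endothelial, leukocyte, smooth muscle and pericyte, and epicardial markers all ran in the order of Kcna5. Between ages some of these sums followed Kcna5 and others did not. At P14 the summed endothelial markers were 611, 391 and 241 CPM in replicates 1, 2 and 3, the fibroblast markers 804, 550 and 218 CPM and the leukocyte markers 20.2, 12.3 and 7.01 CPM, the same order as Kcna5. At P56 the endothelial markers were 102, 54.7 and 40.3 CPM, the fibroblast markers 99.3, 64.4 and 50.5 and the leukocyte markers 12.9, 9.37 and 6.28. These were again in the order of Kcna5. Between ages, endothelial markers were highest at P14 (241 to 611 CPM), as Kcna5 was, against 76.6 to 109 at P1 and 40.3 to 102 at P56. Fibroblast markers summed to 218 to 804 CPM at P14, against 157 to 317 at P1 and 50.5 to 99.3 at P56. Smooth muscle and pericyte markers summed to 184 to 259 CPM at P14, against 163 to 190 and 49.6 to 77.5. Leukocyte markers were higher at P56 (6.28 to 12.9 CPM) than at P1 (3.3 to 4.95), while Kcna5 was lower at P56. The epicardial sum was lower at P14 (16.9 to 30.4 CPM) than at P1 (37.5 to 39.8), while Kcna5 was higher at P14. Most of that sum at P1 was Tbx18, with a mean of 34.5 CPM at P1 and 9.44 at P14. Of the 5 measured epicardial markers, 4 were called higher at P14 than at P1, as Kcna5 was, and 1 lower. Over all genes 28.4% were called higher and 27.5% lower there. With the marker score in the fit, P14 minus P1 was −0.36 for Kcna5 (edgeR adjusted p = 0.531) and P56 minus P14 was −0.07 (adjusted p = 0.94). Without P14 replicate 1, the library with most of these markers, Kcna5 rose by 1.26 (log2; edgeR adjusted p = 0.0301) and then fell by 2.52. The remaining P14 libraries had marker scores of 3.39 and 2.69, above all of P1 (1.59 to 2.19) and P56 (0.77 to 1.82). Leaving out replicate 1 thus does not remove the difference in these markers between ages. Atrial cells, which also carry Kv1.5, had 8 of 8 markers measured, summing to 40 to 48.4 CPM (P1), 28.7 to 50.3 (P14) and 23.2 to 41.9 (P56). Much of this sum was Nppa (means of 16.8, 24 and 20.6 CPM). Of the 8, 1 was called higher and 3 lower at P14 than at P1, against 28.4% and 27.5% of all genes. At P56 against P14, 0 were called higher and 5 lower, against 27.5% and 28.5%. Which cells held the Kcna5 transcripts was not tested. The log2 ratio of Kcna5 to Kcna4, the gene of the slower Kv1.4 transient current, was −5.19 ± 0.13 at P1, −2.76 ± 0.74 at P14 and −4.10 ± 0.91 at P56 (SD, n = 3), with an exact permutation p = 0.0179 (adjusted p = 0.0179). The P14 and P56 libraries overlapped in it, and its adjusted p was above 0.05 without any one of P1 replicates 1, 2 and 3 or P14 replicates 1 and 2.

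**Figure D3:**
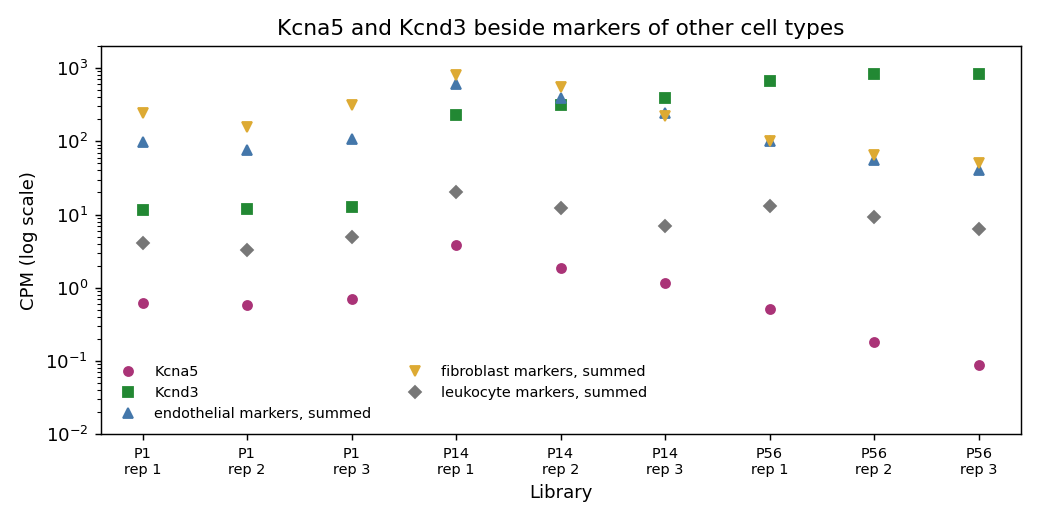
Kcna5 and Kcnd3 in each of the 9 libraries beside the summed endothelial, fibroblast and leukocyte markers, in CPM on a log axis. At P14 the level of Kcna5 and the 3 marker sums are highest in replicate 1 and lowest in replicate 3, and Kcnd3 (231 to 396 CPM) runs in the opposite order.

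Kcnv2, the silent subunit gene (ENSMUSG00000047298), lies at chromosome 19 from 27322588 to 27337179 on the plus strand. It was nearly absent at P1, with 1, 2 and 2 counts in the 3 libraries, and had 62, 98 and 103 counts at P14 and 1400, 1651 and 1840 at P56. Mean CPM was 0.0299 ± 0.0123, then 2.36 ± 0.68 and then 36.9 ± 4.73 (SD, n = 3). The ages were far apart at both steps, and no libraries of different ages overlapped. From summed counts, P14 stood 80.3 times above P1, with an exact 95% counting interval of 34 to 249 times that covers counting error only. P56 stood 15.8 times above P14 (13.9 to 17.9). The edgeR adjusted p was 1.42e-06 for P14 against P1 and 9.02e-07 for P56 against P14. The fitted log2 change of 3.97 ± 0.20 from P14 to P56 was the 30th largest rise of 15817 genes. The fitted value for P1 to P14, 6.21 ± 0.38, rests on 5 counts at P1.

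The changes before and after P14 were compared within each gene. The change after P14 minus the change before it was negative and called for 4 of the 5, against 26% of all genes called lower and 24.1% higher in this test. It was −0.81 ± 0.15 (log2, SE; edgeR adjusted p = 0.00183) for Kcnd2, −3.43 ± 0.28 (adjusted p = 2.33e-05) for Kcnd3 and −2.24 ± 0.60 (adjusted p = 0.0112) for Kcnv2, all of which rose in both intervals, more in the first. Kcna5 had −4.95 ± 0.86 (edgeR adjusted p = 0.00127), from a rise followed by a fall. Once the marker score was a term of the fit, it had 0.29 (adjusted p = 0.855). Kcnip2 had −0.71 ± 0.32, which was not called (adjusted p = 0.0937). The intervals are of unequal length, so these are changes per interval and not per day.

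**Figure D4:**
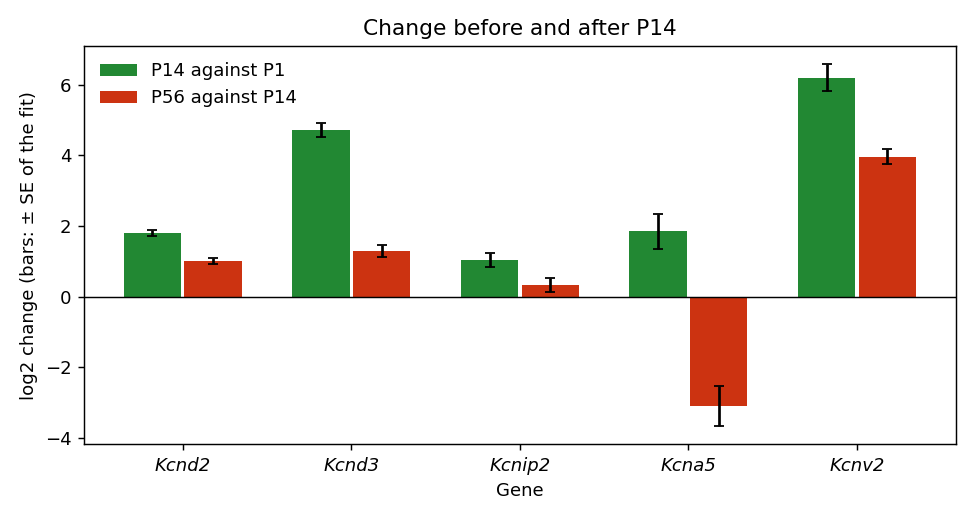
Fitted log2 change of each gene from P1 to P14 and from P14 to P56, with bars for ± SE derived from the edgeR F statistic. Kcnv2 (6.21, then 3.97) and Kcnd3 (4.72, then 1.29) rise most before P14, and Kcna5 rises by 1.85 and then falls by 3.10.

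Levels were compared between genes per kilobase of annotated exon. At P1 the order was Kcnd2 (110 CPM per kb), Kcnip2 (20.3), Kcnd3 (1.25), Kcna5 (0.222) and Kcnv2 (0.00586), and no neighbours overlapped. At P14 the means were 384 for Kcnd2, 41.7 for Kcnip2, 32.8 for Kcnd3, 0.799 for Kcna5 and 0.462 for Kcnv2, with overlap between Kcnip2 and Kcnd3 and between Kcna5 and Kcnv2. At P56 the order was Kcnd2 (767), Kcnd3 (80.2), Kcnip2 (52.3), Kcnv2 (7.22) and Kcna5 (0.0924), again without overlap. Kcnd3 therefore passed Kcnip2, and Kcnv2 passed Kcna5, between P1 and P56 on this scale. Per kilobase of gene body, which suits reads from unspliced RNA, Kcnd2 was at 1.1, 3.84 and 7.69 CPM per kb and Kcnip2 at 2.92, 5.98 and 7.51, with overlap of the 2 genes at P14 and P56. On that scale Kcnd3, at 0.054, 1.42 and 3.47 CPM per kb, stayed below Kcnip2 at every age. The sources used here do not give the counting mode, so neither scale is known to be the right one.

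The genes whose course over the 9 libraries lay nearest to each channel were found by the root mean square difference of mean-centred log2 CPM, among 11978 genes. For Kcnd2 these were Gpcpd1 (0.0769), Intu (0.0906), Asb15 (0.0936), Lgr6 (0.144) and Gipc2 (0.145). For Kcnip2 they were Cdk18 (0.0601), Bnip3 (0.108), Rab30 (0.125), Max (0.126) and St3gal3 (0.129). Kcnd3 lay nearest to its own antisense gene Kcnd3os (0.24), then Rpl3l (0.241), Slc38a3 (0.274), Cnga3 (0.276) and Sec14l5 (0.289). Kcna5 lay nearest to Bcl6b (0.2), Sncaip (0.203), Elk3 (0.229), Stac (0.231) and Sema6a (0.237). Kcnv2 had no neighbour closer than Lgi1 (0.546), which was followed by Acsm5 (0.757), Adra1a (0.806), Ctla4 (0.833) and Ces1d (0.928). Among the 5 channel genes the closest pair was Kcnd2 and Kcnip2 (0.621) and the farthest Kcna5 and Kcnv2 (4.41). All of these distances are over libraries that share the same 3 ages. They are not scaled to the size of a gene's change, so genes with larger changes can lie farther from others. For Kcnv2 they also rest on 1, 2 and 2 counts in the P1 libraries.

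Other pore genes of the Kv1, Kv2, Kv3 and Kv4 families were described from a list, 9 of which could be tested. From P1 to P14, 7 were called higher and 1 lower, against 28.4% and 27.5% of all genes. The median was 1.97 on the log2 scale, against 0.00101 over all genes. From P14 to P56, 3 were called higher and 5 lower, against 27.5% and 28.5% of all genes (median −1.19, against −0.0185). At P56 against P1, 4 were called higher and 4 lower, against 30.9% and 31.7% of all genes. With the marker score in the fit these counts were 3 and 1 (24.4% and 24.6% of all genes), 1 and 2 (14.9% and 14.2%), and 4 and 3 (31.3% and 31.3%). Kcna4, the Kv1.4 gene, fell at each step, from 26.7 ± 0.21 to 14.4 ± 0.95 and 5.41 ± 0.42 CPM (SD, n = 3). Its log2 changes were −0.89 ± 0.08 and −1.41 ± 0.09 (SE), with edgeR adjusted p of 1.75e-05 and 2.29e-06, so it declined as Kcnd2 and Kcnd3 rose. Kcnc1, the Kv3.1 gene, had 11 counts in all at P1, 29 at P14 and 561 at P56, a rise of 4.02 ± 0.39 after P14 (adjusted p = 3.21e-05) that was 2.62 with the marker score (edgeR adjusted p = 0.0217). Kcnd1 was not called in either interval (0.438, 0.595 and 0.4 CPM). Kcng2, the other silent subunit gene tested, had 698 ± 61.8, 826 ± 142 and 670 ± 92.6 CPM (SD, n = 3) and was not called between any ages in the fit by age alone. Without P14 replicate 1 it was called higher at P14 than at P1 (0.38, edgeR adjusted p = 0.0175) and lower at P56 than at P14 (−0.43, adjusted p = 0.00898), and with GC offsets these signs turned without a call (−0.06 and 0.22). Under the marker score Kcng2 was called higher at P14 than at P1 (0.77), lower at P56 than at P14 (−1.08) and lower at P56 than at P1 (−0.31).

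Of 15 tested genes for auxiliary and trafficking partners, 4 were called higher and 5 lower at P14 than at P1 (median 0.126). Over all genes 28.4% were called higher and 27.5% lower. At P56 against P14, 6 were called higher and 5 lower, against 27.5% and 28.5% of all genes. The median there was 0.0733, against −0.0185 over all genes. Adding the marker score left 3 higher and 1 lower, against 24.4% and 24.6% of all genes, and then 5 higher and 2 lower, against 14.9% and 14.2%. Kcnip4, a relative of Kcnip2, rose at both steps, from 1.7 ± 0.11 to 4.03 ± 0.48 and 10.6 ± 2.36 CPM (SD, n = 3), by 1.25 ± 0.18 and 1.39 ± 0.17 (log2, SE). Dpp6, which encodes a transmembrane partner that speeds Kv4 gating, went from 1.99 ± 0.28 to 0.465 ± 0.071 and back to 3.59 ± 1.53 CPM, a fall of 2.09 ± 0.33 followed by a rise of 2.95 ± 0.32. These Dpp6 changes were −1.35 (edgeR adjusted p = 0.0276) and 1.81 (adjusted p = 0.0407) with the marker score. Kcne1, the gene of a single-pass partner of Kv channels, fell from 39.9 ± 3.06 CPM (P1) to 24.6 ± 2.03 (P14) and 0.376 ± 0.167 (P56). Its drop after P14 was −6.02 ± 0.20 (edgeR adjusted p = 1.07e-07), whereas its earlier fall of 0.70 ± 0.14 was −0.45 and not called once the marker score was a term (adjusted p = 0.098).

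**Figure D5:**
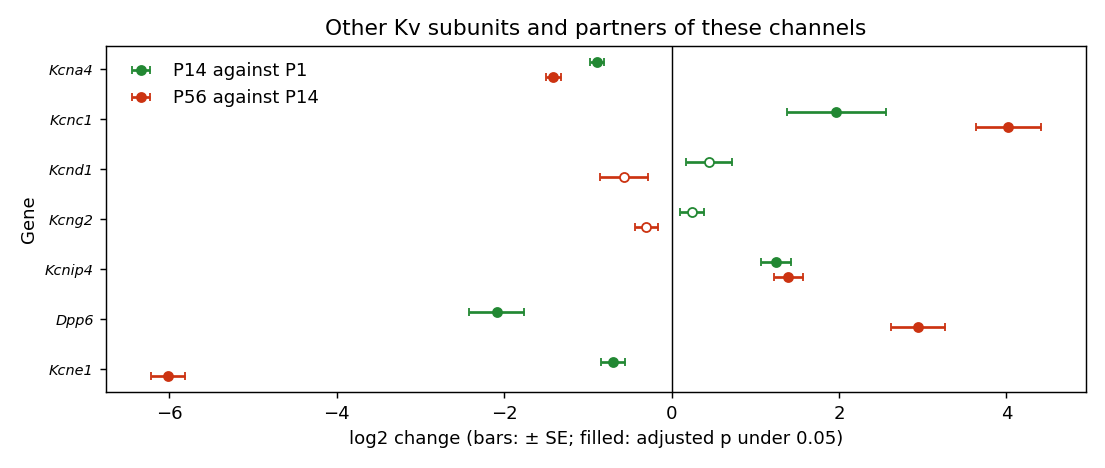
Fitted log2 change of the Kv subunit and partner genes described by name from P1 to P14 and from P14 to P56, with bars for ± SE, filled where the edgeR adjusted p was under 0.05. Kcna4 lies left of 0 in both intervals, Kcnip4 and Kcnc1 lie right of 0 in both, and Kcne1 has the largest fall drawn (−6.02).

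Regulators with a published link to these channels gave 20 tested genes, 6 called higher and 7 lower at P14 than at P1 (median −0.147). The shares of all genes were 28.4% and 27.5%. At P56 against P14, 7 were called higher and 5 lower (median 0.107), against 27.5% and 28.5% of all genes. Adding the marker score gave 5 higher and 8 lower, against 24.4% and 24.6% of all genes, and then 4 higher and 6 lower, against 14.9% and 14.2%. Thyroid hormone is known to raise Kcnd2 in rodent heart. One of its receptor genes, Thrb, rose in both intervals, by 3.81 ± 0.09 and 0.92 ± 0.08 (log2, SE), as did Kcnd2 and Kcnd3. The other, Thra, was not called before P14 (0.05 ± 0.09, edgeR adjusted p = 0.64). With GC offsets Thra was called lower there (−0.23, adjusted p = 0.0185). After P14 Thra was called lower (−1.24 ± 0.09, edgeR adjusted p = 6.5e-06), unlike Kcnd2 and Kcnd3. Rxrg, the gene of a partner of these receptors, rose by 3.76 ± 0.17 and 0.57 ± 0.15. Its second rise was 0.02 and not called once the marker score was a term (edgeR adjusted p = 0.969). Klf15, a factor known to drive Kcnip2 in mouse, stood at 27, 28.4 and 22.6 CPM at P1, 56.3, 75.7 and 88.7 at P14 and 73.1, 92.9 and 83.3 at P56. It rose by 1.50 ± 0.16 (edgeR adjusted p = 4.74e-05) and was then not called (0.18 ± 0.16, adjusted p = 0.366). After P14 Klf15 was called lower with the marker score (−0.64, edgeR adjusted p = 0.0358) and higher with GC offsets (0.42, adjusted p = 0.0196), so its direction there depends on the fit. Of the Iroquois genes, Irx5, known to repress Kcnd2 in mouse, stood at 6.13, 5.18 and 6.24 CPM at P1, P14 and P56 and was not called between any ages in the fit by age alone. With GC offsets Irx5 was called lower at P14 than at P1 (−0.54, edgeR adjusted p = 0.00241), higher at P56 than at P14 (0.89, adjusted p = 0.000172) and higher at P56 than at P1 (0.35, adjusted p = 0.017). Without P14 replicate 3 the P14 changes of Irx5 were called as well (−0.32, edgeR adjusted p = 0.0488, and 0.35, adjusted p = 0.0351). Irx4 fell by 1.05 ± 0.12 before P14. Hey2, a transcriptional repressor of compact ventricular muscle, had the lowest log2 change of the list before P14, falling by 3.43 ± 0.14 from 112 to 10.4 CPM. These are levels side by side, and no effect of a regulator on a channel gene was tested.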

How the data were processed

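The deposited values are raw integer counts per gene, in 1 table of all 9 libraries. The submitters' processing notes name STAR 2.4.0g1, featureCounts 1.4.2 and bcl2fastq 2.17.1.14, and the build GRCm38. The sources used here give neither counting mode nor strand setting. The smallest mean count of a gene was 10, a floor that lies in the deposited counts. Per the labels' protocols RNA was depleted of ribosomal RNA, and per the design text each age was done in biological triplicate.

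Counts were analysed with edgeR 4.0.16 (limma 3.58.1, R 4.3.3) and ratios with Python 3.11.15 and scipy 1.17.1. The filterByExpr filter removed 7 genes and left 15817. TMM scaling and glmQLFit were used on the 9 libraries together, with no term but age (common dispersion 0.0192, prior degrees of freedom 3.68), with glmQLFTest contrasts between ages and Benjamini-Hochberg adjustment over all genes at 0.05. The SE of a log2 change is its absolute value divided by the square root of its quasi-likelihood F statistic. CPM use TMM-scaled library sizes. Libraries of one age differed by more than counting error (chi-square per degree of freedom 5.48 to 101). Library totals ranged from 36619799 to 58538025 counts.

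Ratios are log2 of CPM with 0.1 added, tested by exact permutation of the F statistic, which takes differences in either direction. Nearest profiles were the 5 smallest distances among genes of at least 1 CPM. The script was tested on simulated counts. Positions come from GENCODE for GRCm38, in which 15758 gene identifiers were found, and promoters from RefSeq. The 5 genes and the lists were chosen with earlier results of these data known. The named genes are the 5 channels, genes of the lists and the nearest profiles. A few genes of the lists, and 1 of the 4 ratios tested, are not reported here. Same-numbered libraries did not vary together throughout (correlations of deviations −0.219 to 0.493), so replicate numbers were not taken as pairs. The alternatives were RLE factors, no filter, DESeq2 1.42.0, a replicate block, the marker score, GC offsets (66 genes had no GC content), 2 ages only, glmTreat, another pseudocount of 1 CPM and leaving out each library.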

Additional observations from a re-analysis of the deposited data

How the results depend on the processing

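The number of the 5 genes called was 5, 4, 4, 4 and 5 for P14 against P1, P56 against P14, P56 against P1, the difference between the intervals and any difference. Leaving out each library gave 5 to 5, 4 to 5, 4 to 5, 4 to 5 and 5 to 5. Over the whole table these fits called 7533 to 9239, 7693 to 8986, 8752 to 10556, 6282 to 8182 and 11363 to 12711 genes. The glmTreat test gave 3, 2, 3 and 2 in the first 4, and 2046, 1743, 3048 and 2311 genes over the whole table. With the marker score in the fit 4601 genes were called between P56 and P14 and 5000 for the difference between the intervals, against 8860 and 7916 without it. With it 4, 3, 4, 4 and 4 of the 5 channel genes were called. Among the values of the 5 channel genes, signs turned in 3, all with that score: Kcna5 in P14 against P1 (−0.36), Kcnip2 in P56 against P14 (−0.655) and Kcna5 in the difference between the intervals (0.29). That score moved the median of all genes by 0.112 in the difference between the intervals. The cause was not tested. With the replicate block the counts of called channel genes were 5, 4, 5, 4 and 5, Kcna5 being called lower at P56 than at P1 (−1.42, edgeR adjusted p = 0.0265). That call was also gained with only 2 ages in the fit (adjusted p = 0.0396) and without P14 replicate 1 (0.039). Kcnip2 was called higher at P56 than at P14 with GC offsets (0.58, adjusted p = 0.0115), and in the difference between the intervals without P14 replicate 1 (−1.12, adjusted p = 0.00183). Leaving out each library, the P56 minus P1 difference of the log2 ratios ranged from −3.336 to −3.098 for Kcnd2 to Kcnd3, −1.753 to −1.544 for Kcnip2 to the Kv4 sum and 0.626 to 1.531 for Kcna5 to Kcna4, where the adjusted p reached 0.0607. Of the values of single channel genes, 389 kept direction and call, 10 lost a call, 8 gained one and 3 turned. Depth limits Kcnv2 at P1 and Kcna5 at P56, with 1 to 23 counts per library.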
